A study of Mus musculus with 28 samples.

Results

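The genes described here are transcripts that mark neutrophils, read in mammary tumors, their lung metastases and the normal tissues. They are S100a8, S100a9, Csf3r, Cxcr2 and Retnlg, which mature neutrophils carry, and Ngp, Camp, Ltf, Lcn2 and Mmp8, which encode granule proteins of immature cells. They were chosen by name, and 9 of the 10 were measured among 18193 genes, each by 1 probe set that the platform annotation gives to a single gene. Retnlg had no such probe set in that annotation and was not analysed here.

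RNA of snap-frozen tissue was hybridized to Affymetrix arrays, and the values are log2 units. The groups were 9 lung metastases (LungMets, nodules taken 50 days after cell injection), 11 primary mammary tumors (PT, taken at 30 days), 3 normal lungs (NL) and 3 normal mammary glands (NMG) of healthy mice, with 1 array each of Spheres and a Monolayer of cultured JygMC(A) cells as a baseline that allows no test. All animals were Balb/c nude mice, described in the methods as female, athymic and 8 weeks old, with 6 to 8 weeks given for the normal tissues that were microdissected in the same study. Tumors grew from 50000 JygMC(A) cells, a single mouse mammary carcinoma line that in the methods carried GFP and luciferase, put into mammary gland 4, under the skin by the labels and in the fat pad by the methods. Nude mice lack a thymus and so most T lymphocytes, but they keep neutrophils. The labels do not tie an array to an animal, and for the microdissected tissue of the same study the methods name 1 or 2 fragments of tumor and metastasis from 8 mice. Arrays may therefore share a mouse, within PT and within LungMets as well as between them, and the p-values measure the spread between these samples.

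Neutrophils are short-lived leukocytes that mature in the bone marrow and leave it for the blood when they are nearly ripe. Promyelocytes fill the primary granules with enzymes such as myeloperoxidase, myelocytes and metamyelocytes then make the proteins of secondary granules, and the last stages make gelatinase granules and the receptors needed in blood and tissue. Transcripts of the secondary granule proteins are therefore typical of immature cells in the marrow, while S100a8, S100a9, Cxcr2 and Csf3r transcripts stay in circulating cells. The lung normally holds many neutrophils in its capillaries.

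Some arrays stood apart from their group. LungMets replicate 9 had a mean over 7 lung epithelium genes of 7.23, against 11.41 to 12.26 on the other LungMets arrays. PT replicate 5 had 11.61, within the range of the LungMets arrays. It was close to LungMets replicate 5, at 11.64 for that list, 8.11 against 8.16 for endothelium genes and 4.46 against 4.49 for erythrocyte genes. S100a8 was 8.66 against 8.60 and Lcn2 12.00 against 11.92, but Csf3r was 5.62 against 6.16 and Camp 4.75 against 5.23. Whether these samples share tissue was not tested. LungMets replicate 7 had the highest neutrophil values of its group for 7 of the 9 genes. Member results that rest on PT replicate 5 or LungMets replicates 7 and 9 are given with and without them, some as counts alone. Y-linked genes, which female mice lack, had list means of 2.86 to 3.23 over the 26 tissue arrays. Array medians lay between 5.00 and 5.18.

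S100a8 and S100a9 encode the subunits of calprotectin, a calcium- and zinc-binding protein that makes up much of the neutrophil cytosol and that epidermis and some epithelia can also make. S100a8 (probe set 1419394_s_at) had a lowest, median and highest value of 7.95, 8.87 and 11.90 in LungMets, and of 4.08, 6.46 and 8.66 in PT. It was 10.36, 10.69 and 9.81 in NL, and 9.60, 8.55 and 8.68 in NMG. PT thus held the lowest values and the widest spread, and 5 of 9 LungMets arrays lay above every PT array. The cell line baseline was 5.07 in Spheres and 6.05 in the Monolayer, and 7 of 11 PT arrays exceeded both.

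S100a9 (1448756_at) had 7.45, 8.38 and 11.89 as lowest, median and highest value in LungMets, and 3.81, 6.39 and 8.51 in PT. It was 10.17, 10.40 and 9.66 in NL, and 9.22, 8.48 and 8.40 in NMG. The order of the group means was the same for both genes, with NL highest, then LungMets, NMG and PT, and the neighbours NL, LungMets and NMG did not pass the test against each other. The 2 genes followed each other within LungMets and within PT. Pearson's r was 0.98 in LungMets (Spearman's rho 0.88, n = 9, exact permutation p = 0.000118 for r, Benjamini-Hochberg adjusted over 10 relations 0.000395) and 0.88 without replicates 1 and 7. In PT r was 0.97 (rho 0.96, n = 11, permutation p = 1e-05, the smallest the permutations can give, adjusted 5e-05) and 0.94 without replicates 5 and 11. Within the 7 PT arrays of date batch 2 it was 0.98 (exact permutation p = 0.000794), and every other batch held too few arrays of a group. Both genes lie on chromosome 3 with 0 protein-coding genes between them in the GRCm38.p6 annotation.

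The 250 bases before the start of 4 members are shown because S100a8 and S100a9 moved together, Ngp stands for the granule proteins, and Lcn2 followed an epithelial gene in PT. The sequences are from RefSeq on GRCm38.p6, 5′ to 3′ in the direction of the gene. Capitals mark the 8-base C/EBP motif TTNNGCAA or its reverse TTGCNNAA, and the 6-base PU.1 motif GAGGAA or its reverse TTCCTC, which did not overlap each other here. C/EBP factors and PU.1 are known regulators of granulocyte genes.
S100a8, chr3:90668821-90669070, + strand: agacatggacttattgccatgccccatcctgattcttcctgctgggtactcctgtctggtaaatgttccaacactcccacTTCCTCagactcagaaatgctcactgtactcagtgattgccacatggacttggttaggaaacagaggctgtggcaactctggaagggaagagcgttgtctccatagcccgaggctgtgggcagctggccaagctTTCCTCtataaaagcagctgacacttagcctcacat
S100a9, chr3:90695722-90695971, - strand: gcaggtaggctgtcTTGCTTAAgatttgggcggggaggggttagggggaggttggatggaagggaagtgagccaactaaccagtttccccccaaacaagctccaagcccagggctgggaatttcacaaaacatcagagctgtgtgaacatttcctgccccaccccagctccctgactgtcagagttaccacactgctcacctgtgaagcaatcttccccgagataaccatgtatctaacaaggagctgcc
Ngp, chr9:110419558-110419807, + strand: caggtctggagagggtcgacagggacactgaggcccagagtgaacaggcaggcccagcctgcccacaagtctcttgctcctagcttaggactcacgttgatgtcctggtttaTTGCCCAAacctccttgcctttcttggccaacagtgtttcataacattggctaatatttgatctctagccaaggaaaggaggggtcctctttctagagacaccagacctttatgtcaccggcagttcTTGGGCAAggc
Lcn2, chr2:32387740-32387989, - strand: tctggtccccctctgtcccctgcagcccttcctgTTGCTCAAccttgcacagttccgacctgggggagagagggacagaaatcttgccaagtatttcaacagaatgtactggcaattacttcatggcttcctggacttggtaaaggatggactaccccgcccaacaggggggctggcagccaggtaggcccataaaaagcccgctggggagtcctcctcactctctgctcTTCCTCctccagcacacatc
The C/EBP letters stood in this window of 6 of the 10 listed genes, against 9.56% of 32851 promoters, and the PU.1 letters in 6 of 10, against 23.3%. The NF-kB motif, searched on both strands, was in 0 of 10, against 1.41%. S100a8 had 2 PU.1 matches and no C/EBP match, and S100a9 had 1 C/EBP match. Ngp had 2 C/EBP matches and Lcn2 1 of each. Such a match describes letters and not binding.

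**Figure D1:**
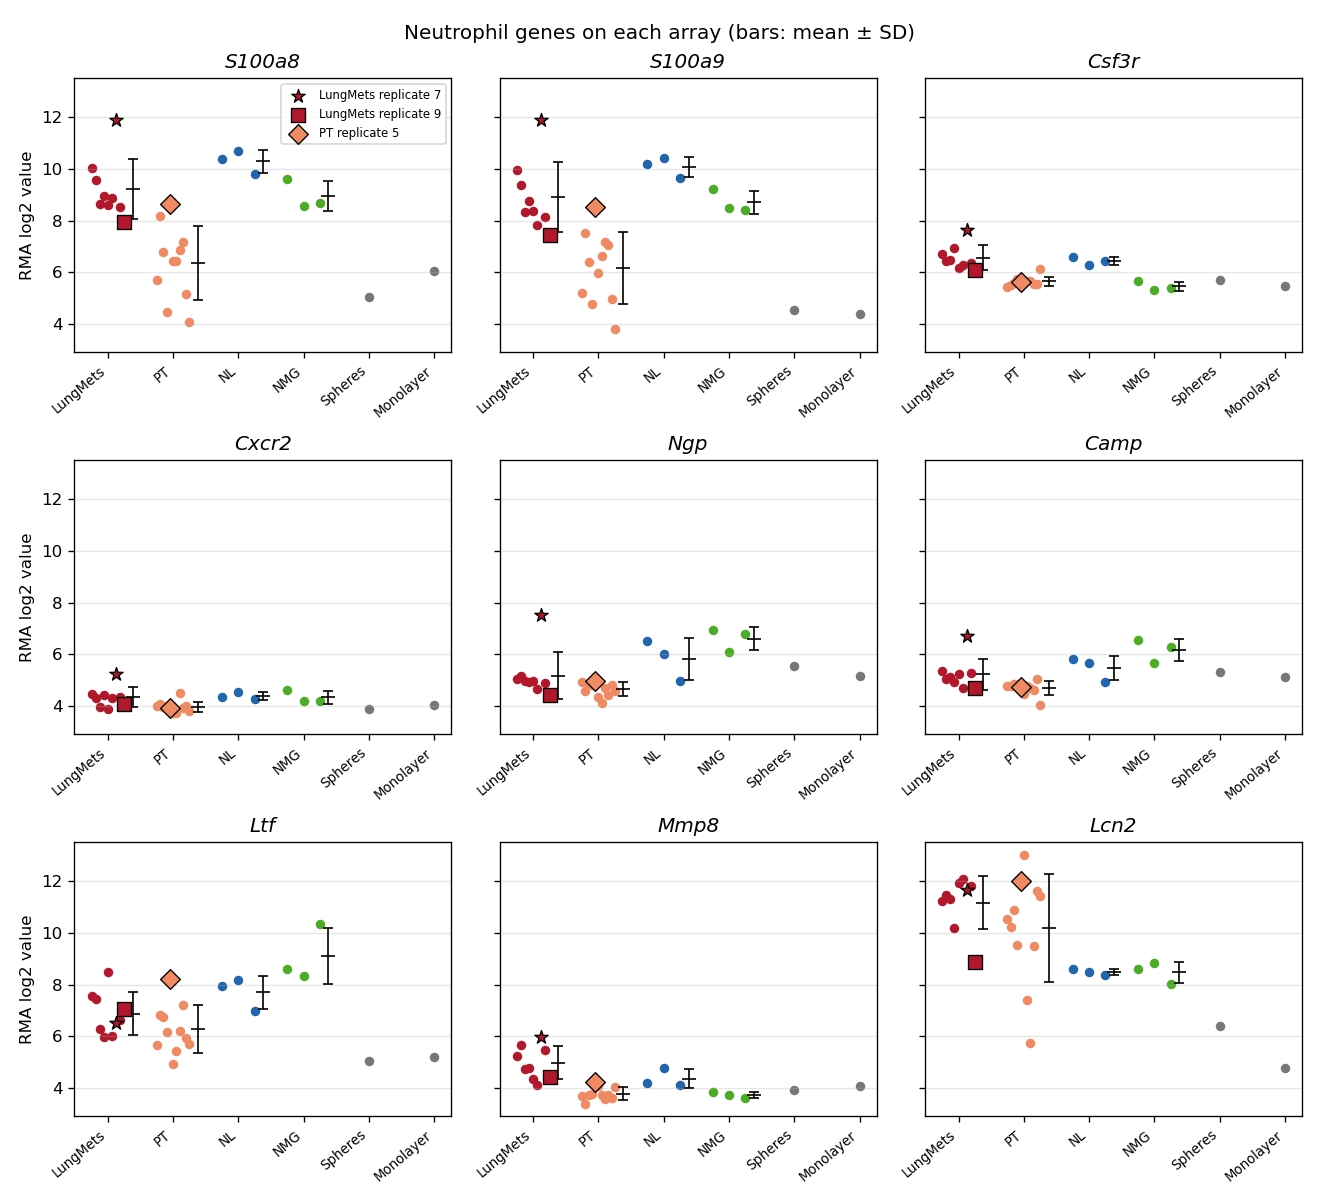
RMA log2 value of 9 neutrophil genes (vertical axis) on each array, by group along the horizontal axis, with points for arrays and bars for mean ± SD of groups with several arrays. The star is LungMets replicate 7, the square LungMets replicate 9 and the diamond PT replicate 5. S100a8 and S100a9 sit lowest in PT, Ngp, Camp and Ltf sit highest in NMG, and the star tops LungMets for Ngp at 7.54 and for S100a8 at 11.90.

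Csf3r encodes the receptor for G-CSF, the main growth factor of the lineage. Its values (1418806_at) were 6.10, 6.44 and 7.65 as lowest, median and highest in LungMets, and 5.45, 5.61 and 6.15 in PT. It was 6.61, 6.29 and 6.46 in NL, and 5.66, 5.33 and 5.38 in NMG. All lung tissue thus lay above NMG, and 8 of 9 LungMets arrays lay above every PT array. The cell line arrays were at 5.72 in Spheres and 5.47 in the Monolayer, and 2 of 11 PT arrays and 0 of 3 NMG arrays exceeded both. Csf3r and S100a8 had r = 0.89 in LungMets (rho 0.82, n = 9, exact permutation p = 0.00737 for r, adjusted 0.0147) and 0.49 without replicates 1 and 7, so that the relation rests on those arrays. In PT r was -0.57 (rho -0.32, n = 11, permutation p = 0.0637, adjusted 0.106), -0.34 without replicates 5 and 11, and -0.65 within the 7 arrays of date batch 2 (exact permutation p = 0.177).

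Cxcr2 encodes the receptor for chemokines that bring neutrophils into blood and tissue. Its values (1421734_at) stayed in a narrow band, with 3.90, 4.33 and 5.25 as lowest, median and highest in LungMets, and 3.72, 3.97 and 4.50 in PT. It was 4.37, 4.54 and 4.27 in NL, and 4.62, 4.19 and 4.22 in NMG. The cell lines gave 3.90 in Spheres and 4.06 in the Monolayer, and only LungMets replicate 7 stood clear of the other arrays.

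Ngp, the neutrophilic granule protein of secondary granules, had 4.42, 4.96 and 7.54 as lowest, median and highest value in LungMets (1418722_at), and 4.11, 4.71 and 4.99 in PT. It was 6.53, 6.0 and 4.96 in NL, and 6.94, 6.10 and 6.79 in NMG. All 11 PT arrays lay below every NMG array and below both cell line arrays, which were at 5.56 in Spheres and 5.17 in the Monolayer. LungMets replicate 7 was the only LungMets array above the cell lines.

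Camp, the cathelicidin of secondary granules, had 4.70, 5.13 and 6.71 in LungMets (1419691_at), and 4.05, 4.77 and 5.04 in PT. It was 5.81, 5.66 and 4.94 in NL, and 6.54, 5.68 and 6.29 in NMG. The cell lines were at 5.31 in Spheres and 5.12 in the Monolayer, and 2 of 9 LungMets, 0 of 11 PT, 2 of 3 NL and 3 of 3 NMG arrays lay above both. Ngp and Camp had r = 0.96 in LungMets (rho 0.72, n = 9, exact permutation p = 0.00223 for r, adjusted 0.00557), which fell to 0.62 without replicates 7 and 9. In PT r was 0.33 (rho 0.43, n = 11, permutation p = 0.319, adjusted 0.389). Replicate 7 is among the arrays on which the relation in LungMets rests.

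Ltf, lactoferrin, is an iron-binding protein of secondary granules that mammary epithelium also secretes. It had 5.96, 6.62 and 8.49 as lowest, median and highest value in LungMets (1450009_at), and 4.92, 6.16 and 8.20 in PT. It was 7.95, 8.17 and 6.97 in NL, and 8.60, 8.35 and 10.35 in NMG. Every NMG array lay above every PT and NL array, and NMG replicate 3 had the highest Ltf value of all arrays. The cell lines were at 5.06 in Spheres and 5.22 in the Monolayer.

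Mmp8, the neutrophil collagenase, had 4.14, 4.78 and 5.96 in LungMets (1449366_at), and 3.40, 3.73 and 4.25 in PT. It was 4.22, 4.79 and 4.11 in NL, and 3.86, 3.73 and 3.64 in NMG. The Spheres and Monolayer arrays were at 3.93 and 4.07, so NMG and most PT arrays did not exceed cultured tumor cells. All 9 LungMets arrays did, and 8 of them lay above every PT array.

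Lcn2, lipocalin 2, binds bacterial siderophores. It is a secondary granule protein that many epithelia make as well. Its values (1427747_a_at) were 8.86, 11.46 and 12.08 as lowest, median and highest in LungMets, and 5.74, 10.55 and 13.01 in PT. It was 8.60, 8.48 and 8.38 in NL, and 8.59, 8.82 and 8.01 in NMG. The 9 LungMets arrays all lay above the normal tissues; the PT arrays spread most widely, with 9 above and 2 below every NMG array. The cell lines were at 6.39 in Spheres and 4.79 in the Monolayer.

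Within PT, Lcn2 followed Epcam, a surface protein of epithelial cells that neutrophils lack. Pearson's r was 0.98 (rho 0.98, n = 11, permutation p = 1e-05, the smallest the permutations can give, adjusted 5e-05). Epcam was picked after its values were seen, and neither the p-values nor the adjustment over 10 relations cover that choice. The r is thus a description. This r was 0.94 without replicates 7 and 8, and 0.99 within the 7 arrays of date batch 2 (exact permutation p = 0.000397). PT replicate 8 had the lowest values of both genes, with Epcam at 7.01 and Lcn2 at 5.74, and PT replicate 6 the highest, at 13.36 and 13.01. For S100a8 and Lcn2 in PT r was -0.06 (rho -0.08, n = 11, permutation p = 0.873, adjusted 0.873). In LungMets the r of Epcam and Lcn2 was 0.37 (rho 0.32, n = 9, exact permutation p = 0.35, adjusted 0.389), and -0.02 without replicates 5 and 6.

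**Figure D2:**
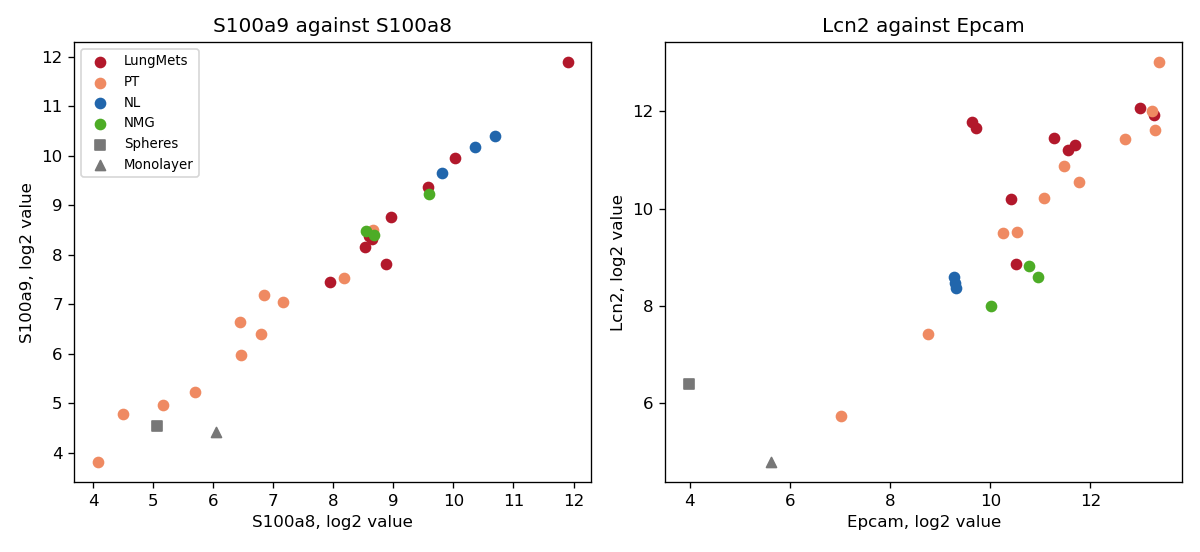
S100a9 against S100a8 (left) and Lcn2 against Epcam (right), both axes in log2 units, 1 point per array. S100a9 follows S100a8 along the LungMets (r = 0.98) and PT (r = 0.97) points, while Lcn2 follows Epcam along the PT points (r = 0.98) and the LungMets points scatter (r = 0.37).

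Set against PT, LungMets carried more transcript of 5 neutrophil genes. Of the 9 genes, S100a8, S100a9, Csf3r, Cxcr2 and Mmp8 were higher in LungMets and 0 were lower, where 9.03% of all genes were higher and 6.13% lower (15.2% in either direction). All 4 mature genes were called higher, with a median difference of 1.82. Of the 5 granule genes 1 was, with a median of 0.60, beside -0.02 over all genes. The mature median rests on S100a8 and S100a9, since Csf3r and Cxcr2 differed by 0.92 and 0.38. The granule genes that were not called differed by 0.53 to 0.99, each more than Cxcr2. S100a8 differed by 2.87 log2 units (SE 0.514, 95% interval 1.81 to 3.93, limma adjusted p = 0.000499) and S100a9 by 2.71 (SE 0.533, limma adjusted p = 0.00115). Mmp8 differed by 1.18 (SE 0.186, limma adjusted p = 0.000164) and Csf3r by 0.92 (SE 0.142, limma adjusted p = 0.000135). Camp had 0.54 (limma adjusted p = 0.0587), Ngp 0.53 (0.214), Ltf 0.60 (0.31) and Lcn2 0.99 (0.34), none past the threshold with all arrays. Camp was called higher without LungMets replicate 9 (0.61, limma adjusted p = 0.0332) or replicate 6 (0.60, 0.0391), which makes 2 of 5 granule genes. In bulk tissue more neutrophils, more transcript per neutrophil and transcript from other cells cannot be told apart.

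Cxcr2 was barely past the threshold at 0.38 (SE 0.127, limma adjusted p = 0.0425). That call was lost when any 1 of 14 arrays was left out, with 0.27 and an adjusted p of 0.0801 without LungMets replicate 7. The other 4 calls stayed when any 1 array was left out. Without PT replicate 5 and LungMets replicate 9, S100a8 differed by 3.26 and S100a9 by 3.12, and with LungMets replicate 7 left out as well by 2.90 and 2.72. The arrays carried dates that formed 2 batches with both groups. With date as a block 4 of 9 members and 2059 of 18193 genes were called, with S100a8 at 2.87. In batch 1 (4 LungMets and 4 PT) 4 of 9 members and 1392 genes were called, with S100a8 at 3.02, Mmp8 at 1.46 and Csf3r at 1.07. In batch 2 (5 LungMets and 7 PT) limma called 0 members and 0 genes, with 5 members and 2669 genes at an unadjusted p under 0.05, and S100a8 differed by 2.77, Mmp8 by 1.00 and Csf3r by 0.82.

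Markers of other cells moved with this comparison. Lung epithelium genes were higher in LungMets for 6 of 7 (median difference 5.49), with list means of 7.23 to 12.26 in LungMets and 5.26 to 11.61 in PT. Endothelium genes were higher for 6 of 6 (median 2.01), with list means of 6.50 to 9.52 in LungMets and 4.59 to 8.11 in PT. The macrophage list had 1 of 11 higher (median 0.27) and the general leukocyte list, which holds Ptprc, had 0 of 4 called (median 0.59). The part of lung tissue in the neutrophil result was not tested.

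Set against NL, the lung metastases did not pass the test for any of the 4 mature genes of the set. S100a8 had a difference of -1.06 log2 units (95% interval -2.63 to 0.51, limma adjusted p = 0.267), and 7 of 9 LungMets arrays lay below every NL array while replicate 7 lay above all 3. S100a9 differed by -1.18 (interval -2.81 to 0.45, limma adjusted p = 0.231), Csf3r by 0.12 (-0.31 to 0.55) and Cxcr2 by -0.04 (-0.43 to 0.35). Lcn2 was the 1 member called, at 2.68 (SE 0.972, limma adjusted p = 0.0262) and with no overlap (16.7% of all genes in that direction), among 23.8% of all genes called higher and 22.4% lower (46.2% in either direction). The Lcn2 call was lost without any 1 of the 3 NL arrays, at adjusted p of 0.0649 to 0.0793. Ngp had -0.65 (limma adjusted p = 0.199), and without LungMets replicate 7 it had -0.94 (adjusted p = 0.00219), so that this 1 array decided whether Ngp was called lower in metastases than in lung. Mmp8 had 0.60 (limma adjusted p = 0.0784) and was called higher without LungMets replicate 5 (0.68), without LungMets replicate 6 (0.70) or without NL replicate 2 (0.81). Without PT replicate 5 and LungMets replicate 9, 2 of 5 granule genes were called higher. With LungMets replicate 7 left out as well, 1 was higher and 1 lower. Of the 4 mature genes 0 were called in either setting.

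The cell markers differed here too. Lung epithelium genes were lower in LungMets for 1 of 7 (median -2.13). Without PT replicate 5 and LungMets replicate 9 this was 4 of 7 (median -1.47). Endothelium genes were lower for 6 of 6 (median -3.03) and macrophage genes higher for 5 of 11 (median 0.82). Of 4 general leukocyte genes 0 were called. The part of these cells in the result was not tested.

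**Figure D3:**
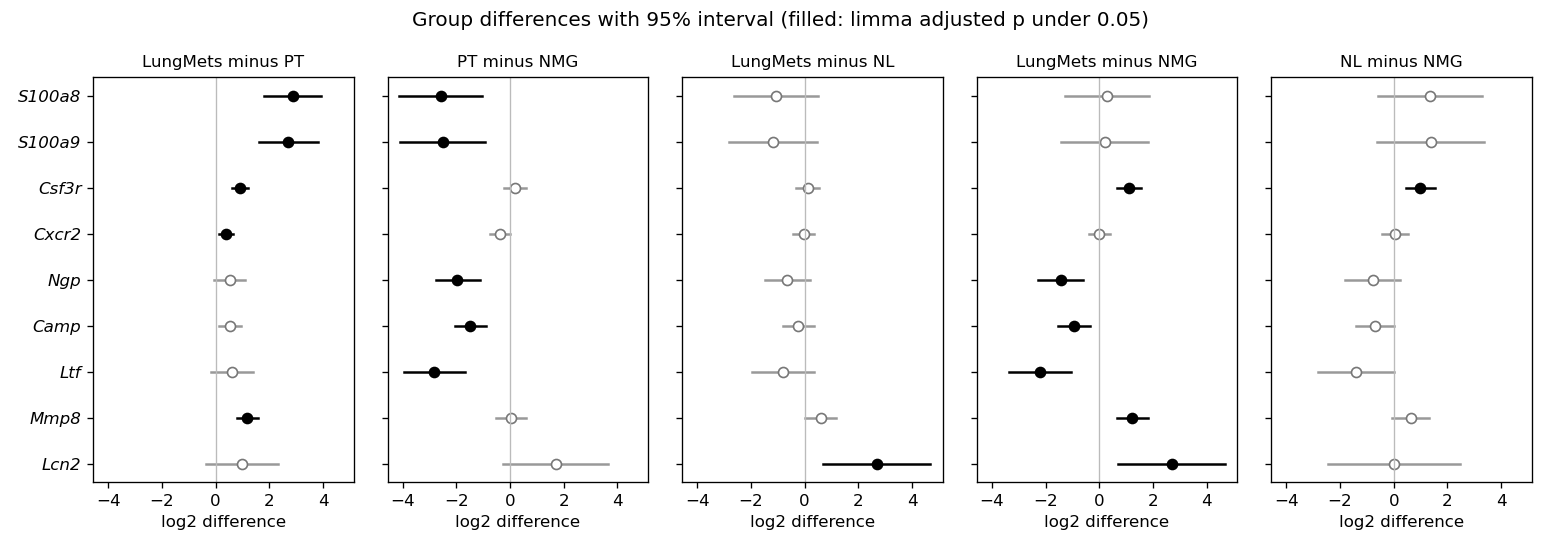
Log2 difference between groups (horizontal axis) with its 95% interval for each neutrophil gene (vertical axis) in 5 comparisons, filled where the limma adjusted p is under 0.05. LungMets lie above PT for 5 genes, PT lie below NMG for 5 genes, and against NL 1 gene, Lcn2, is filled.

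Set against NMG, the primary tumors were lower in 5 of the 9 genes and higher in 0, where 21.0% of all genes were lower and 26.7% higher (47.7% in either direction). Ltf fell by 2.82 (SE 0.546, limma adjusted p = 0.000146), Ngp by 1.96 (SE 0.397, limma adjusted p = 0.000243) and Camp by 1.48 (SE 0.278, limma adjusted p = 0.000106), with no overlap between the groups, which held for 16.0% of all genes in that direction. S100a8 fell by 2.59 (SE 0.745, limma adjusted p = 0.00589) and S100a9 by 2.51 (SE 0.772, limma adjusted p = 0.00931), with 10 of 11 PT arrays below every NMG array for both. The exception was PT replicate 5, and without it and LungMets replicate 9 the 5 calls stayed, with S100a8 at -2.82 and Ltf at -3.01. The S100a9 call was lost without NMG replicate 1 (-2.25, adjusted p = 0.0562). Csf3r, Cxcr2 and Mmp8 had 0.19, -0.38 and 0.04, none past the threshold with all arrays. Cxcr2 was called lower without LungMets replicate 7 (-0.38, limma adjusted p = 0.0263) or PT replicate 8 (-0.43, 0.046). Lcn2 had 1.70 (interval -0.25 to 3.66, limma adjusted p = 0.145), and 2.15 (adjusted p = 0.0217) without PT replicate 8.

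Leukocyte markers moved with this comparison too. General leukocyte genes were lower in PT for 4 of 4 (median -2.59), with list means of 6.91 to 9.89 in PT and up to 11.13 in NMG, without overlap. B and T lymphocyte genes were lower for 6 of 6 (median -1.87). Endothelium genes were lower for 5 of 6 (median -2.07), and mammary gland and fat genes for 4 of 8 (median -1.72). Their part in the neutrophil result was not tested. In the labels the normal glands and the normal lungs each carry a date of their own, so tissue and date cannot be told apart in any comparison with them.

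The comparisons of LungMets and of NL with NMG share its 3 arrays with the one above. In LungMets against NMG, Lcn2, Mmp8 and Csf3r were higher and Ngp, Camp and Ltf lower, 6 of 9 in all, where 23.1% of all genes were higher and 17.9% lower (41.0% in either direction). Lcn2 differed by 2.70 (limma adjusted p = 0.0288), Mmp8 by 1.23 (0.000966) and Csf3r by 1.11 (0.000157). Ngp differed by -1.43 (limma adjusted p = 0.00665), Camp by -0.94 (0.0105) and Ltf by -2.22 (0.00263). The granule genes thus went both ways, and S100a8 and S100a9, at 0.28 and 0.20, did not pass the test (limma adjusted p = 0.79 and 0.861). Without NMG replicate 3, the array with the highest Ltf, 3 members were called, and Ltf (-1.59), Camp (-0.88) and Lcn2 (2.46) were not. The Camp call was also lost without NMG replicate 1 (-0.75), and the Lcn2 call without any 1 of the 3 NMG arrays. Lung epithelium genes were higher in LungMets for 6 of 7 (median 5.36), while general leukocyte genes were lower for 3 of 4 (-2.17) and lymphocyte genes for 4 of 6 (-1.98). Their part in the result was not tested.

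In NL against NMG, Csf3r alone was called, at 0.99 (SE 0.257, limma adjusted p = 0.00419), where 14.3% of all genes were higher and 14.5% lower (28.9% in either direction). S100a8, S100a9 and Mmp8 had 1.34, 1.38 and 0.63 and Ltf had -1.40, none of them past the threshold. The arrays of the 2 groups did not overlap for these 4 genes and Csf3r, which also held for 47.5% of all genes. Without LungMets replicate 7, whose value does not enter this difference but does enter the shared estimate of spread, Ngp (-0.78, adjusted p = 0.0416) and Camp (-0.70, 0.0286) were called lower in NL. Lung epithelium genes were higher in NL for 6 of 7 (median 7.09) and endothelium genes for 6 of 6 (3.07), while general leukocyte genes were lower for 2 of 4 (-1.73) and mammary gland and fat genes for 5 of 8 (-3.51). Their part in the result was not tested.

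The metastases against lung and the tumors against mammary gland were also set against each other, as the difference of the differences. Camp was the 1 member called, at 1.24 (SE 0.398, limma adjusted p = 0.028), where 10.1% of all genes were higher and 9.68% lower (19.8% in either direction). Camp had -0.24 in LungMets against NL and -1.48 in PT against NMG. The call was lost without NL replicate 3 (adjusted p = 0.13), NMG replicate 1 (0.105) or NMG replicate 3 (0.0707). Other markers moved the same way: 4 of 4 general leukocyte genes were called higher in this difference (median 2.26), as were 6 of 11 macrophage genes (1.41) and 4 of 6 lymphocyte genes (1.70), and their part in the Camp result was not tested. Ngp had 1.31 (limma adjusted p = 0.115) and passed without LungMets replicate 7 (1.01, adjusted p = 0.0297). Ltf had 2.00 (limma adjusted p = 0.0746) and passed without PT replicate 5 (2.20, 0.0275). Without PT replicate 5 and LungMets replicate 9, 2 of 5 granule genes were called higher in this difference. With LungMets replicate 7 left out as well, 3 of 5 were.

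**Figure D4:**
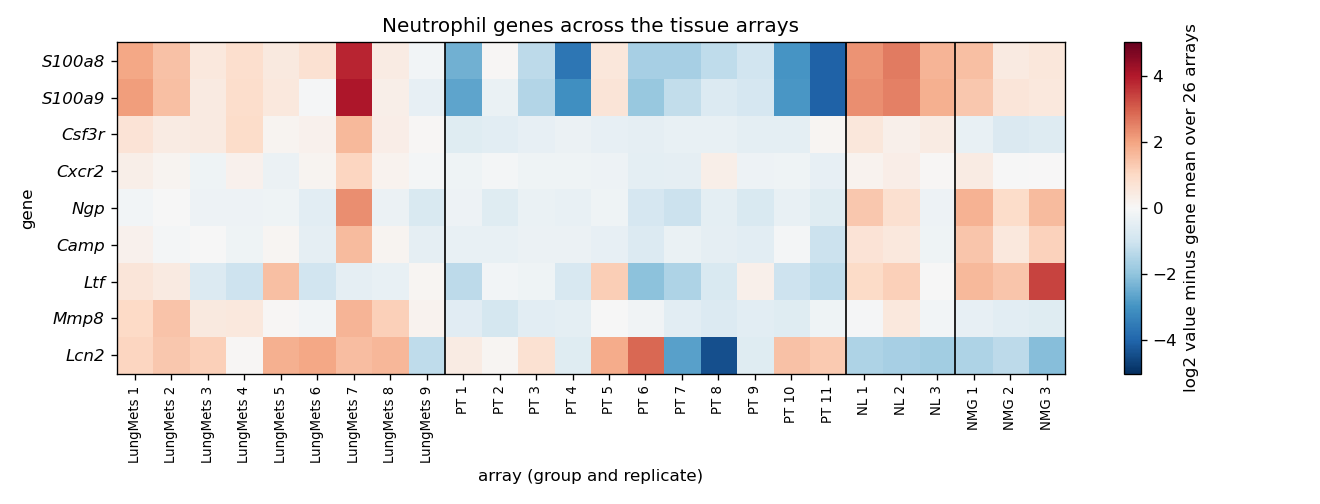
Log2 value of each neutrophil gene (down the page) minus its mean over 26 tissue arrays, for each array (along the page, by group and replicate), in colour from -5 to 5. LungMets 7 is the highest LungMets column for S100a8, S100a9 and Ngp and PT 4 and PT 11 are the lowest in S100a8 at 4.49 and 4.08, while Lcn2 is lowest in PT 8 at 5.74.

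Seen over arrays, LungMets replicate 7 was high for nearly the whole set. It had 11.90 for S100a8, 11.89 for S100a9, 7.65 for Csf3r, 5.25 for Cxcr2, 7.54 for Ngp, 6.71 for Camp and 5.96 for Mmp8, each the highest of the 9 LungMets arrays. Its Ltf value was 6.51 and its Lcn2 value 11.67, both within the range of the group. The mean of 4 erythrocyte genes was also highest on this array, at 6.68, against 4.08 to 5.36 on the other LungMets arrays, while its general leukocyte list was at 9.40, within the group's 8.35 to 9.95.

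Among the members S100a8 and S100a9 were alike at r = 0.97 on their array-to-array deviations from the group means over the 26 arrays (0.96 without LungMets replicate 7). Members aside, the genes whose array-to-array deviations from the group means were most like those of Ngp over the 26 arrays, among 9092 genes above the median mean, were Fech (r = 0.86), Clec3b (0.85), Tpbgl (0.81), Podn (0.80) and Slc48a1 (0.77). Fech encodes the last enzyme of heme synthesis. Without LungMets replicate 7 these r were 0.44 to 0.61. The genes outside the set most like S100a8 were Smpdl3a (0.80), Fgfr3 (0.80), Rnf144b (0.79), Lyve1 (0.79) and Flrt3 (0.78), with r of 0.72 to 0.78 without that array. These are descriptions over arrays that share tissue content.

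Further neutrophil genes were read in the same way. Of the 5 primary granule genes (Mpo, Elane, Prtn3, Ctsg and Ms4a3), which promyelocytes make, 0 were called in LungMets against PT, where 15.2% of all genes were. Their median difference was -0.02. Mpo averaged 4.37 ± 0.15 in LungMets (SD, n = 9), 4.39 ± 0.12 in PT (n = 11), 4.00 ± 0.09 in NL and 4.63 ± 0.40 in NMG (n = 3 each). The list mean was 4.18 to 4.51 in LungMets, 4.15 to 4.71 in PT and 4.47 on both cell line arrays. Against NL 4 of the 5 were called higher in LungMets, where 23.8% of all genes were. However, Elane and Mpo had 0 arrays of either group above both cell lines and Ms4a3 had 1 LungMets array. The differences of these genes thus lie at levels that cultured tumor cells also gave. Prtn3 was above both on 9 of 9 LungMets and 0 of 3 NL arrays and differed by 0.88 (limma adjusted p = 0.0444), a call lost without PT replicate 5 and LungMets replicate 9 (0.83, adjusted p = 0.0669).

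Of 15 other mature neutrophil genes measured, 8 were higher in LungMets than in PT and 0 lower (median 0.63). Of all genes 9.03% were higher and 6.13% lower. Fpr2, a formyl peptide receptor, averaged 7.46 in LungMets and 5.58 in PT, a difference of 1.88 (limma adjusted p = 0.000212). Itgb2, a leukocyte integrin chain, differed by 1.05 (0.00574), Hdc, which makes histamine, by 0.99 (0.002) and Clec4e by 0.90 (0.00155). For Clec4e 4 of 9 LungMets and 0 of 11 PT arrays lay above both cell line arrays, and for Hdc 8 of 9 and 4 of 11. For Fpr2 these were 9 of 9 and 8 of 11, and for Itgb2 9 of 9 and 11 of 11. In PT against NMG 3 of the 15 were higher and 5 lower, where 26.7% of all genes were higher and 21.0% lower. Clec4d differed by 1.64 (limma adjusted p = 2.59e-05), Selplg, the selectin ligand, by -2.36 (1.91e-08) and Mxd1 by -2.1 (5.53e-09). In LungMets against NL 1 of the 15 was higher and 3 lower, where 23.8% of all genes were higher and 22.4% lower. Mxd1 differed by -1.14 (limma adjusted p = 6.08e-05), Fpr2 by -1.13 (0.0434), Hdc by -0.91 (0.0185) and Clec4d by 0.76 (0.0286). Without PT replicate 5 and LungMets replicate 9, 1 was higher and 2 lower.

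Of 12 other granule and early genes, 3 were higher in LungMets than in PT and 0 lower (median 0.21). Of all genes 9.03% were higher and 6.13% lower. Chil3, a chitinase-like protein that lung macrophages also make, rose by 5.14 (limma adjusted p = 0.000168), Mgst1 by 1.02 (0.0271) and Olfm4 by 0.57 (0.00506), with Olfm4 means of 3.30 in LungMets and 2.73 in PT near the level of the Y-linked genes. Chil3 was 3.78 on the lowest LungMets array and 9.02 on the highest PT array, and without PT replicate 5 and LungMets replicate 9 it differed by 6.31. In PT against NMG 4 were lower and 0 higher, where 21.0% of all genes were lower and 26.7% higher. The 4 were Mgst1 (-2.09), Adam8 (-1.35), Pglyrp1 (-0.96) and Olfm4 (-0.69).

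Ligands and growth factors for neutrophils changed in part. Of 11, 4 were higher in LungMets than in PT and 1 lower, where 9.03% of all genes were higher and 6.13% lower. Among the higher were Cxcl15, a chemokine of lung epithelium, by 6.44 (limma adjusted p = 0.000119), Ppbp, a platelet chemokine, by 1.40 (0.0476) and Il1a by 0.62 (0.00177). Without PT replicate 5 and LungMets replicate 9 Cxcl15 differed by 7.94, and with LungMets replicate 7 left out as well Ppbp by 0.98. Cxcl5, the one called lower, averaged 2.83 in LungMets, at or under the level of the Y-linked genes, and 3.42 in PT. Csf3, which encodes G-CSF, averaged 4.57 in LungMets, 4.56 in PT, 4.14 in NL and 4.32 in NMG. In PT against NMG 5 were higher and 3 lower, where 26.7% of all genes were higher and 21.0% lower. Among the higher were Cxcl3 (limma adjusted p = 0.0415), which averaged 4.57 in PT and 2.80 in NMG, and Cxcl2 (0.022), which averaged 3.99 in PT and 3.17 in NMG. Both NMG means were at the level of the Y-linked genes. The higher cell line value of Cxcl3 was 8.73, and 0 of 11 PT arrays lay above it. For Cxcl2 it was 3.63, with 9 of 11 PT arrays above. Among the lower was Cxcl12, by -2.64 (limma adjusted p = 9.03e-07). Csf2 differed by -1.53 in LungMets against NL (limma adjusted p = 1.04e-06).

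Of 6 transcription factors of the lineage, Cebpd (1.13, limma adjusted p = 0.00085) and Cebpa (0.77, 0.00033) were higher in LungMets than in PT, and 0 were lower. Of all genes 9.03% were higher and 6.13% lower. In PT against NMG 2 of 6 were higher and 3 lower, where 26.7% of all genes were higher and 21.0% lower. Cebpa, needed for the step to granulocytes, differed by -3.33 (limma adjusted p = 5.8e-13) and Spi1, which encodes PU.1, by -1.21 (3.49e-06), while Runx1 differed by 2.97 (7.16e-10) and Cebpb by 1.20 (0.0011). The higher cell line value was 8.96 for Runx1 and 10.73 for Cebpb, beside PT means of 8.99 and 11.03. For Cebpa it was 4.96 and for Spi1 5.80, beside PT means of 6.57 and 5.88. Cebpa is also made by fat cells and lung epithelium.

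Against the cell line baseline, 6 of the 9 neutrophil genes lay above both cultures on all 9 LungMets arrays (Ltf, Lcn2, Mmp8, S100a8, S100a9 and Csf3r), where 12.4% of all genes did. In PT 0 of 9 did so on all 11 arrays, where 9.26% of all genes did. Ltf, Lcn2 and S100a9 each lay above both cultures on 10 of 11 PT arrays and S100a8 on 7. Mmp8, Csf3r and Cxcr2 did on 2 each, and Ngp and Camp on 0. On every array of the group, 7 genes lay above both cultures in NL (all but Ngp and Camp) and 7 in NMG (all but Mmp8 and Csf3r). NL had 28% of all genes above both cultures on every array, and NMG 26%.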

How the data were processed

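RNA of 28 samples was read on Affymetrix arrays, 1 per sample. The authors deposited RMA log2 values from Partek, so levels are relative within an array and carry no detection call, and the number of arrays limits the precision. Of 45101 probe sets, 34958 list 1 gene, 932 several and 9211 none. Without 13 control probe sets, 34945 stood for 18193 genes, and where several matched a gene, the brightest on average across the 26 tissue arrays was kept. Groups were compared with limma 3.58.1 in R 4.3.3, fitting all 26 tissue arrays together, two-sided, with p-values adjusted by Benjamini-Hochberg across the 18193 genes and called under 0.05. Correlations used permutation tests (scipy 1.17.1, Python 3.11.15). Scripts were tested on simulated data. The genes and lists were chosen with earlier results of these data known. Beside the members, up to 4 called genes with the largest difference per further list and comparison were named, the 5 genes most like Ngp and S100a8, and Mpo, Csf3 and Epcam, picked after their values were seen. Alternatives changed the probe set rule, filter, normalization, weights, blocks, groups fitted and arrays included.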

Additional observations from a re-analysis of the deposited data

Results flagged for a closer look

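In the 9 groups of LungMets values tested for a lone extreme, 1 group per gene, 3 had one. For a single group chance gives about 1 in 20. The groups hold the same arrays and are not independent, and all 3 extremes were LungMets replicate 7. Its Ngp value of 7.54 lay above the next LungMets array at 5.16, its Camp value of 6.71 above 5.37, and its Cxcr2 value of 5.25 above 4.49. Camp also differed between contrasts, since its change in LungMets against NL exceeded that in PT against NMG by 1.24 (limma adjusted p = 0.028).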

How the results depend on the processing

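The numbers of the replicates gave no clear pairing of the samples. Of 9 LungMets and PT pairs 7 correlated over 0.1 (r -0.23 to 0.48), and 1 array fitted its own number best. No pair of the other comparisons passed 0.1. Equal numbers in LungMets and PT also share a date batch, which the check did not remove, so it cannot decide whether they pair. The check also used deviations from group means, so a likeness in level, as of PT and LungMets replicate 5, need not show. With the replicate block 5 members were called in PT against NMG, 4 in LungMets against PT, 1 in LungMets against NL, 6 in LungMets against NMG, 2 in NL against NMG and 2 for the difference of differences, and Cxcr2 had -0.02 in LungMets against NMG.

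Counts of members called moved by over 1.5 times as follows. With genes above the median mean alone, there were 3 in PT against NMG, 2 in LungMets against PT, 2 in LungMets against NMG, and 0 in NL against NMG and in the difference of differences. Of the members only Ltf, Lcn2, S100a8 and S100a9 lie above that median of 6.25, so the others were not tested under this filter. A fold over 2 as a further condition left 3 in LungMets against PT and 0 in NL against NMG. Date batch 2 alone gave 0. Array weights gave 3 in LungMets against NL, 4 in NL against NMG and 3 in the difference of differences, a second quantile normalization 0 in the last, and a fit of 2 groups 4 in NL against NMG. Without PT replicate 5 and LungMets replicate 9 there were 2 in LungMets against NL and 2 in the difference of differences, and without LungMets replicate 7 as well (chosen after seeing the data) there were 2 in LungMets against NL, 3 in NL against NMG and 3 in the difference of differences. Leaving these arrays out for genes of the other lists was also chosen after seeing the data.

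List medians moved too. The filter gave -0.56 for granule and -2.55 for mature genes in PT against NMG, 2.79 for mature genes in LungMets against PT, and turned the granule median to 0.93 in LungMets against NL and 0.24 in LungMets against NMG. Counting Mmp8 as mature gave a mature median of -0.38 in PT against NMG. Leaving out Lcn2, S100a8 and S100a9 gave mature medians of -0.09 there and 0.65 in LungMets against PT. The filter and these choices leave fewer genes in the lists, and other causes were not tested.

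Differences near 0 that were not called changed sign. Mmp8 in PT against NMG had -0.02 (quantile), -0.07 (weights) and 0 in both leave-outs. Cxcr2 had 0.02 in LungMets against NL (centred), and -0.11 (quantile), -0.05 (weights) and -0.09 (3 arrays out) in LungMets against NMG, where S100a9 had -0.02 (3 arrays out). Lcn2 in NL against NMG had 0 (centred), -0.05 (quantile) and -0.14 (weights), and Csf3r 0.06 in the difference of differences (weights).

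Leaving out each array in turn gave 4 to 7 members called in PT against NMG, 4 to 6 in LungMets against PT, 0 to 2 in LungMets against NL, 3 to 6 in LungMets against NMG, 1 to 3 in NL against NMG and 0 to 2 for the difference of differences. Ranges that crossed 0 were -0.01 to 0.10 for Mmp8 in PT against NMG; -0.02 to 0.20 for Csf3r and -0.15 to 0.03 for Cxcr2 in LungMets against NL; -0.05 to 0.61 for S100a8, -0.18 to 0.46 for S100a9 and -0.11 to 0.14 for Cxcr2 in LungMets against NMG; -0.22 to 0.19 for Lcn2 and -0.03 to 0.18 for Cxcr2 in NL against NMG; and -0.21 to 0.01 for Csf3r in the difference of differences.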
